A study of Arabidopsis thaliana with 8 samples.

Results

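The genes described here are 51 Arabidopsis thaliana loci that make, move, regulate or activate glucosinolates: 27 of the aliphatic branch, 15 of the indolic branch and 9 that serve both. They were taken as a list of loci covering the MYB regulators, side chain elongation, core synthesis, side chain modification, cosubstrate supply, transport and myrosinases, and were looked up in the deposited comparison tables of 32678 genes. The genes were chosen by their place in the pathway with the group means and fold changes of each compound against mock already in view, so differences from mock are given as descriptions. Of the 51 loci, 50 were found in the tables and AOP2 was not analysed here. AOP3 (AT4G03050), which like AOP2 encodes a dioxygenase that modifies side chains, had 0 reads in all 8 libraries, where a count of 0 allows up to 3 reads over a group. Over the 8 libraries 47 genes averaged 10 normalized counts or more, of which 25 are aliphatic, 13 indolic and 9 shared, and MYB122 and IGMT2 averaged less.

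Whole seedlings of the Columbia wild type, 10 days old and grown on MS medium under continuous light, were given 1 of 3 compounds at 50 µM for 3 h, abscisic acid (ABA), its catabolite phaseic acid (PA) or the PA product dihydrophaseic acid (DPA), against a mock treatment. ABA is a hormone made under water deficit, PA is its hydroxylated and ring-closed catabolite, and DPA is PA whose ring ketone has been reduced to a hydroxyl group. Each of the 4 groups held 2 biological replicates of unmutated plants, and polyadenylated RNA was sequenced as single reads of 50 bases. The deposited group means are normalized counts (reads divided by a size factor per library), and the reads of both libraries behind each mean were recovered from them.

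Glucosinolates are sulfur-rich thioglucosides of Brassicales, and their hydrolysis by myrosinases upon wounding yields isothiocyanates, nitriles and related defence compounds. Aliphatic glucosinolates are built mainly from methionine, whose side chain is first lengthened in chloroplasts, while indolic ones are built from tryptophan. In both branches a CYP79 enzyme makes an aldoxime, a CYP83 enzyme oxidises it, and glutathione transferases, a C-S lyase, a glucosyltransferase and a sulfotransferase complete the core.

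Gene reads in units of 1e6 were 15.9 and 11.5 with ABA, 15.6 and 11.5 with PA, 13.5 and 13.0 with DPA, and 13.0 and 12.7 in mock. Recovered libraries carry no replicate number, so in every pair of values the library of higher size factor comes first. The SD over genes of the log2 difference between duplicates was 0.226 with ABA, 0.211 with PA, 0.234 with DPA and 0.324 in mock, whose libraries stood farthest apart. The leaf markers RBCS1A, LHCB1.1, CAB3 and LHCB2.1 and 5 root markers were read in every group of the whole-seedling samples. In whole seedlings, fewer cells of a type and less RNA per cell cannot be told apart.

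With ABA, regulators, chain elongation genes and core genes of the aliphatic branch fell, while the flavin monooxygenase genes FMO GS-OX4 and FMO GS-OX2 rose. By the adjusted p of the authors' deposited table (DESeq, under 0.05), 12 of 25 aliphatic genes fell, 2 rose and 11 were not called. Of the indolic genes, 4 of 15 fell, and of the shared genes 2 of 9 fell in the authors' deposited table. Over all genes of that comparison 10.3% were called higher and 5.12% lower with ABA. With PA, the authors' deposited table called FMO GS-OX4 and MYB29 higher and no gene of the pathway lower, against 1.18% of all genes higher and 0.146% lower. With DPA it called none of the 49 tested genes, against 0.00834% of all genes higher and 0.00417% lower, and 2 of the 49 had an unadjusted p under 0.05.

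The recovered libraries were also compared with limma, a linear model with a spread shared over 19617 genes, at an adjusted p under 0.05. Limma called 29 of 47 genes lower and 3 higher with ABA, where 14.3% of all genes were lower and 18.0% higher. Those called lower were 21 of 25 aliphatic, 5 of 13 indolic and 3 of 9 shared genes. The third gene it called higher with ABA was GSTF10, a glutathione transferase of the indolic branch. With PA, limma called FMO GS-OX4 and FMO GS-OX2 higher and no gene lower, where 1.84% of all genes were higher and 0.311% lower. Limma did not call MYB29 with PA (adjusted p = 0.246), although the authors' deposited table did. With 1 library left out limma called fewest genes with ABA, 20, when the ABA library with the higher size factor was the missing one, and most with PA, 13, when it was the mock library with the lower size factor. With DPA, limma called 0.0% of all genes higher and 0.0% lower, and 6 of the 47 pathway genes had an unadjusted p under 0.05.

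**Figure D1:**
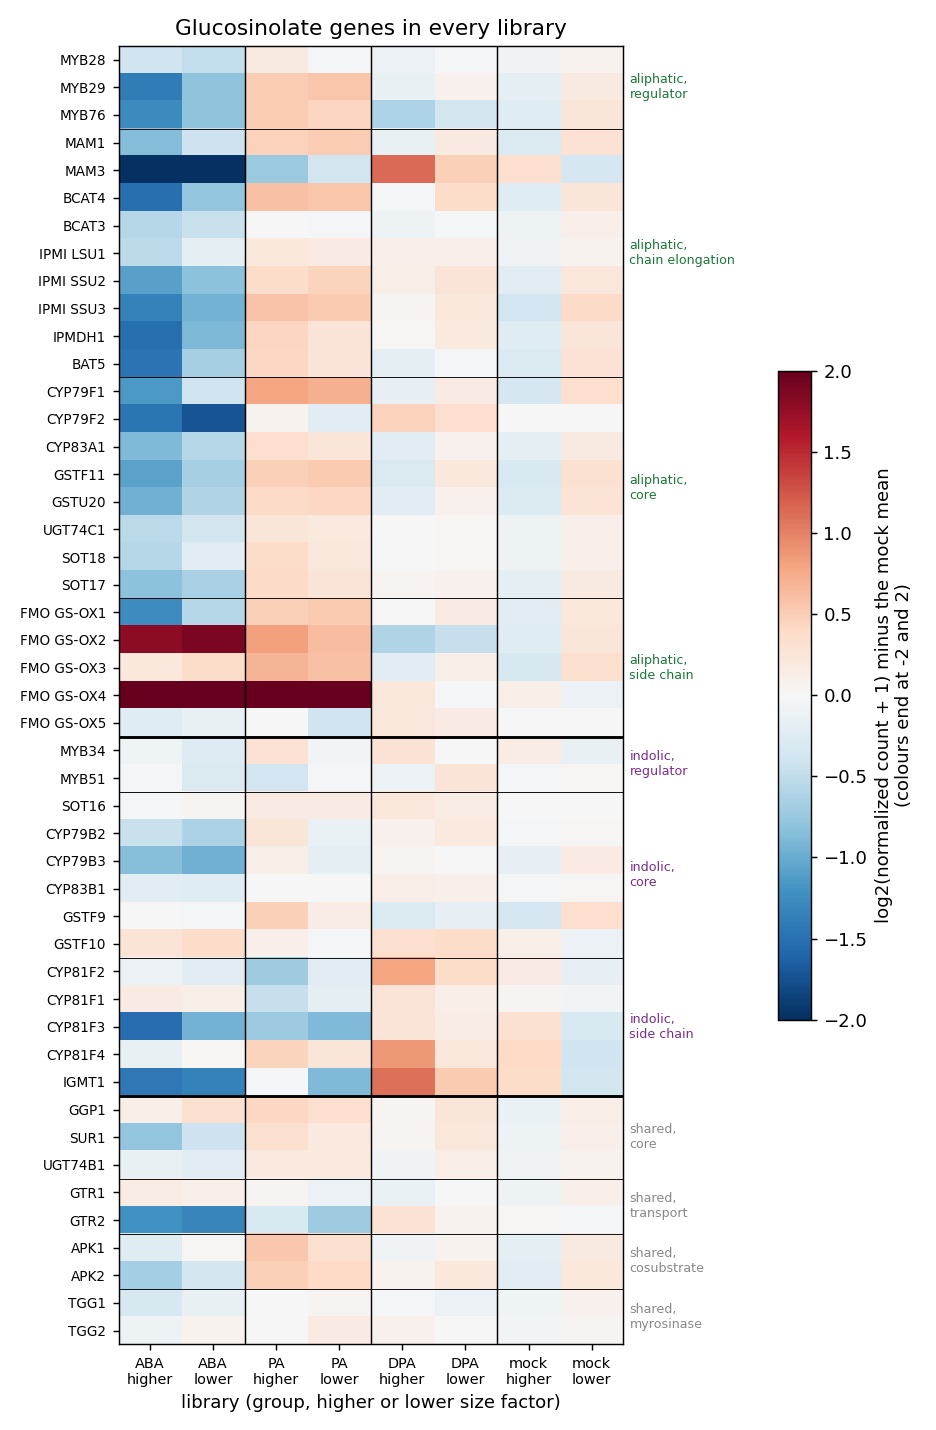
Level in each of the 8 libraries of the 47 pathway genes that averaged 10 normalized counts or more, as log2(normalized count + 1) minus the mean of the mock libraries. Columns are libraries by group and size factor, rows are genes by branch and role, and colours end at -2 and 2. Aliphatic regulators, chain elongation and core genes are blue with ABA and mostly red with PA, and FMO GS-OX4 is dark red with both.

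The aliphatic branch is switched on by the R2R3-MYB factors MYB28, MYB29 and MYB76. All 3 fell with ABA in the authors' deposited table, against 5.12% of all genes. MYB29 (AT5G07690) had 285 and 430 normalized counts with ABA, 1071 and 1102 with PA, 678 and 800 with DPA, and 664 and 847 in mock. Its ABA libraries lay below and its PA libraries above all others, and the DPA and mock ranges overlapped. In the authors' deposited table its log2 fold change over mock was -1.08 with ABA (DESeq adjusted p = 0.0031) and 0.52 with PA (adjusted p = 0.0286).

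MYB28 (AT5G61420), the regulator also needed for long-chain aliphatic glucosinolates, had 1348 and 1266 normalized counts with ABA, 2007 and 1738 with PA, 1635 and 1743 with DPA, and 1703 and 1863 in mock. It lay lowest in both ABA libraries, and its log2 fold change with ABA in the authors' deposited table was -0.45. MYB76 (AT5G07700) was read at a much lower level, with 31.3 and 44.1 normalized counts under ABA, 111 and 104 under PA, 49.9 and 59.9 under DPA, and 65.4 and 91.6 in mock. Its log2 fold change with ABA was -1.06 in the authors' deposited table (DESeq adjusted p = 0.0289). MYB29 and MYB76 are neighbours, 1442 bases apart on the same strand of chromosome 5.

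The authors' deposited table called none of the 3 indolic regulators against mock with any compound. With ABA it called 10.3% of all genes higher and 5.12% lower, and fewer with PA and DPA. For 3 genes, no call is near those shares. MYB34 (AT5G60890) had 620 and 549 normalized counts with ABA, 803 and 631 with PA, 800 and 663 with DPA, and 733 and 591 in mock, and its groups overlapped except for ABA against PA and DPA. MYB51 (AT1G18570), which also acts in pathogen-induced indolic glucosinolate synthesis, had 190 and 158 normalized counts with ABA, 149 and 189 with PA, 179 and 233 with DPA, and 188 and 201 in mock. MYB122 (AT1G74080) stayed between 4.36 and 12.4 normalized counts in the 8 libraries. The limma 95% interval of the ABA log2 fold change of MYB34 was -0.51 to 0.16.

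MYB factors of both branches work with the bHLH proteins MYC2, MYC3 and MYC4. MYC2 had 1217 and 1276 normalized counts with ABA, 801 and 888 with PA, 685 and 674 with DPA, and 560 and 699 in mock. With ABA, the authors' deposited table gives a log2 fold change of 0.99 for MYC2 and 0.42 for MYC3, both called higher, and of -0.11 for MYC4 without a call. In that comparison 10.3% of all genes were called higher.

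Chain elongation lengthens methionine through deamination by BCAT4, condensation by the methylthioalkylmalate synthases MAM1 and MAM3, isomerisation by the isopropylmalate isomerase subunits and oxidation by IPMDH1. With ABA, 5 of its 9 genes fell in the authors' deposited table (MAM3, BCAT4, BCAT3, IPMI SSU2 and IPMDH1), none rose, and the median log2 fold change of the 9 was -1.05. Of all genes in that comparison, 5.12% fell and 10.3% rose. MAM3 (AT5G23020), which accepts substrates of all chain lengths, had 26.1 and 24.5 normalized counts with ABA, 205 and 265 with PA, 753 and 478 with DPA, and 432 and 271 in mock. Both ABA libraries lay far below the other 6, and in the authors' deposited table mock stood 13.9-fold above ABA (log2 fold change -3.80, DESeq adjusted p = 2.1e-06). Its neighbour MAM1 (AT5G23010), which serves short chains, had 2400 and 3264 normalized counts with ABA, 5997 and 6180 with PA, 3926 and 4922 with DPA, and 3586 and 5301 in mock. The authors' deposited table did not call MAM1 with ABA (log2 fold change -0.65), and the genes lie 11144 bases apart.

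BCAT4 (AT3G19710), the aminotransferase that starts elongation, had 578 and 947 normalized counts with ABA, 2447 and 2404 with PA, 1591 and 2113 with DPA, and 1387 and 1934 in mock. Over 11.7% of its span it overlaps AT3G19700 on the opposite strand, which averaged 180 normalized counts, against 1675 for BCAT4. AT3G19700 also fell with ABA in the authors' deposited table (log2 fold change -1.30), and its part in the BCAT4 counts was not tested. IPMDH1 (AT5G14200) had 658 and 1001 normalized counts with ABA, 2518 and 2228 with PA, 1895 and 2135 with DPA, and 1571 and 2216 in mock. IPMI SSU2 (AT2G43100), a small subunit of the isomerase, had 738 and 883 normalized counts with ABA, 2006 and 2127 with PA, 1694 and 1859 with DPA, and 1340 and 1821 in mock. In BCAT4, IPMDH1 and IPMI SSU2 the ABA libraries lay below all others and the PA libraries above them, without a call against mock with PA. IPMI SSU3 (AT3G58990), a related small subunit, had 345 and 454 normalized counts with ABA, 1310 and 1263 with PA, 909 and 1015 with DPA, and 673 and 1147 in mock. Its log2 fold change with ABA was -1.19, to 2 decimals that of IPMDH1, yet the authors' deposited table did not call IPMI SSU3 (DESeq adjusted p = 0.143). BAT5 (AT4G12030), the chloroplast carrier of the keto acids, had 176 and 311 normalized counts with ABA, 655 and 589 with PA, 428 and 485 with DPA, and 406 and 600 in mock, also without a call in that table.

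BCAT3 also serves branched-chain amino acid synthesis, and IPMI LSU1 is the isomerase large subunit shared with leucine synthesis. BCAT3 (AT3G49680) had 1152 and 1255 normalized counts with ABA, 1717 and 1671 with PA, 1596 and 1671 with DPA, and 1587 and 1829 in mock (ABA log2 fold change -0.50 in the authors' deposited table). IPMI LSU1 (AT4G13430) ranged from 2195 to 2741 normalized counts with ABA, 3539 to 3652 with PA, 3372 to 3374 with DPA and 2985 to 3311 in mock, with no call in the authors' deposited table. Of 5 paralogs that serve leucine synthesis, IMD2 (log2 fold change -0.77) and IPMS1 (-0.39) fell with ABA in the authors' deposited table, against 5.12% of all genes.

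In the aliphatic core, CYP79F1 and CYP79F2 make the aldoximes, and the 2 genes lie 1183 bases apart on the same strand of chromosome 1. CYP79F2 (AT1G16400), which acts on long-chain methionine derivatives, had 150 and 125 normalized counts with ABA, 434 and 357 with PA, 571 and 525 with DPA, and 417 and 411 in mock. Its ABA libraries lay far below the rest, and its log2 fold change was -1.59 in the authors' deposited table (DESeq adjusted p = 1.2e-12). CYP79F1 (AT1G16410), which takes short and long chains, had 1235 and 2064 normalized counts with ABA, 4724 and 4449 with PA, 2436 and 3068 with DPA, and 2174 and 3433 in mock. It was not called with ABA in the authors' deposited table (log2 fold change -0.77), while limma called it lower (adjusted p = 0.0405). A share of 2.89% of the 50-base exon windows of CYP79F2 and 1.70% of those of CYP79F1 also occur at another place in the genome. Both strands were searched, in genes or between them, and windows across exon junctions were not counted.

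CYP83A1 (AT4G13770), the aldoxime oxidase of the branch, had 1677 and 2069 normalized counts with ABA, 3881 and 3657 with PA, 2622 and 3255 with DPA, and 2708 and 3507 in mock. CYP79F2, CYP83A1, the glucosyltransferase UGT74C1 and the sulfotransferase SOT17 fell with ABA in the authors' deposited table. They were 4 of the 8 aliphatic core genes, against 5.12% of all genes lower in that table. The 4 others, CYP79F1, GSTF11 (AT3G03190), GSTU20 and SOT18, had log2 fold changes between -0.90 and -0.39 without a call there. GSTU20 (AT1G78370), a tau class glutathione transferase, had 1769 and 2251 normalized counts with ABA, 4472 and 4583 with PA, 2980 and 3633 with DPA, and 2844 and 4145 in mock. UGT74C1 (AT2G31790) had 1086 and 1220 normalized counts with ABA, 1857 and 1800 with PA, 1562 and 1617 with DPA, and 1457 and 1691 in mock, and SOT17 (AT1G18590) ran from 335 to 377 with ABA, 705 to 773 with PA, 615 to 627 with DPA and 519 to 673 in mock. In all 8 core genes the ABA libraries lay below both mock libraries, and in 7 of the 8, all but CYP79F2, the PA libraries lay above both. Neither the authors' deposited table nor limma called any of the 8 against mock with PA. Over all genes they called 1.18% and 1.84% higher with PA. GSTF11, a phi class glutathione transferase, had 63.5 and 84.5 normalized counts with ABA, 189 and 194 with PA, 111 and 156 with DPA, and 109 and 167 in mock. It lies wholly within the span of AT3G03200 on the opposite strand, which averaged 11.9 normalized counts, against 134 for GSTF11, and the sources used here do not state whether counting used strand.

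The FMO GS-OX enzymes are flavin monooxygenases that oxidise the methylthio group of aliphatic glucosinolates to methylsulfinyl. FMO GS-OX4 (AT1G62570) had 6389 and 7059 normalized counts with ABA, 918 and 936 with PA, 146 and 121 with DPA, and 135 and 114 in mock. The ABA libraries lay far above the PA libraries and these far above the rest, while the DPA and mock ranges overlapped. In the authors' deposited table FMO GS-OX4 rose 53.9-fold with ABA (DESeq adjusted p = 1.07e-212) and 7.44-fold with PA (adjusted p = 1.59e-52), against 1.07-fold with DPA. Per kilobase of exon its mean was 3031 with ABA, 418 with PA, 60.1 with DPA and 56.2 in mock, which put it first of the 5 FMO GS-OX genes with ABA and last in mock.

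FMO GS-OX2 (AT1G62540) had 1120 and 1198 normalized counts with ABA, 573 and 497 with PA, 214 and 235 with DPA, and 274 and 384 in mock. It rose 3.53-fold with ABA in the authors' deposited table (DESeq adjusted p = 1.56e-27), its PA libraries lay above and its DPA libraries below both mock libraries. FMO GS-OX3 (AT1G62560) had 708 and 785 normalized counts with ABA, 975 and 913 with PA, 528 and 663 with DPA, and 488 and 762 in mock, and was called against mock with none of the compounds. FMO GS-OX1 (AT1G65860) showed the order of the core genes, with 154 and 246 normalized counts under ABA, 514 and 531 under PA, 368 and 411 under DPA, and 319 and 424 in mock. FMO GS-OX5 (AT1G12140) varied least, from 325 and 347 normalized counts with ABA and 387 and 292 with PA to 449 and 432 with DPA, against 384 and 385 in mock, and overlaps an antisense gene over 32.2% of its span.

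FMO GS-OX2, FMO GS-OX3 and FMO GS-OX4 stand in that order on the same strand of chromosome 1, with gaps of 4005 and 5885 bases, and no 50-base exon window of FMO GS-OX4 occurs at another place in the genome. The 250 bases before the annotated start of each were read from the TAIR10.1 reference, with those of FMO GS-OX1, to show neighbours and a paralog whose responses differ. They lie on the forward strand at chr1:23168517-23168766, chr1:23151384-23151633 and chr1:23159484-23159733, and on the reverse strand at chr1:24502777-24503026. Sequences run 5′ to 3′ toward the gene, and capitals mark ACGTG on either strand (CACGT when read on the other strand), the core of the ABA response element to which bZIP factors of the ABF family bind.
FMO GS-OX4: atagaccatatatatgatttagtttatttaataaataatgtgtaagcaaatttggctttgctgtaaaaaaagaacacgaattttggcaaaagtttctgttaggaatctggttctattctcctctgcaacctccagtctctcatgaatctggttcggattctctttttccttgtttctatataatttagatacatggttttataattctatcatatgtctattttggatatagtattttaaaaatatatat
FMO GS-OX2: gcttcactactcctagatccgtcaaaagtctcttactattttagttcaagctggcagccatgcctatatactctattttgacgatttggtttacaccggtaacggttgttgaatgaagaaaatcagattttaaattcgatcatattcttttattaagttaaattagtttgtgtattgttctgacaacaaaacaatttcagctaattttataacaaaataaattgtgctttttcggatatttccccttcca
FMO GS-OX3: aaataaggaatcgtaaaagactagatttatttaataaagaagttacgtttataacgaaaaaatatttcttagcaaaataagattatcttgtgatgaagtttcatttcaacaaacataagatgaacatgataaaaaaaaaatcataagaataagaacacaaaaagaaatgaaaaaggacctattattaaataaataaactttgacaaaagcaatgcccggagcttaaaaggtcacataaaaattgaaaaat
FMO GS-OX1: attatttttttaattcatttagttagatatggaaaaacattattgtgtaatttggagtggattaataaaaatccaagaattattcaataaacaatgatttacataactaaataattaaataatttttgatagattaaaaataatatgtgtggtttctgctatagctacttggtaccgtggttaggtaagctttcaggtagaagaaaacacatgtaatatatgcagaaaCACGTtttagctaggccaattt
FMO GS-OX1 holds 1 such match in its window, and none occurs in the windows of FMO GS-OX2, FMO GS-OX3 and FMO GS-OX4. ACGTG on either strand occurred in the windows of 22 of 50 pathway genes (44%), of 42.3% of aliphatic and of 53.3% of indolic genes, against 21.7% of 31911 genes of the tables. The longer ACGTGNC, which contains it, occurred in 6% of the pathway genes and 7.85% of all genes. The G-box CACGTG, which holds it on both strands and is bound by MYC factors, occurred in 6%, in the windows of CYP83A1, IPMI LSU1 and SUR1, against 5.91% of all genes. TTGAC, the W-box core bound by WRKY factors, occurred in 38% of pathway genes and 44.6% of all genes. These matches describe letters in a window and not sites of binding. The 31911 genes include loci without reads and were not matched in level to the pathway genes.

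**Figure D2:**
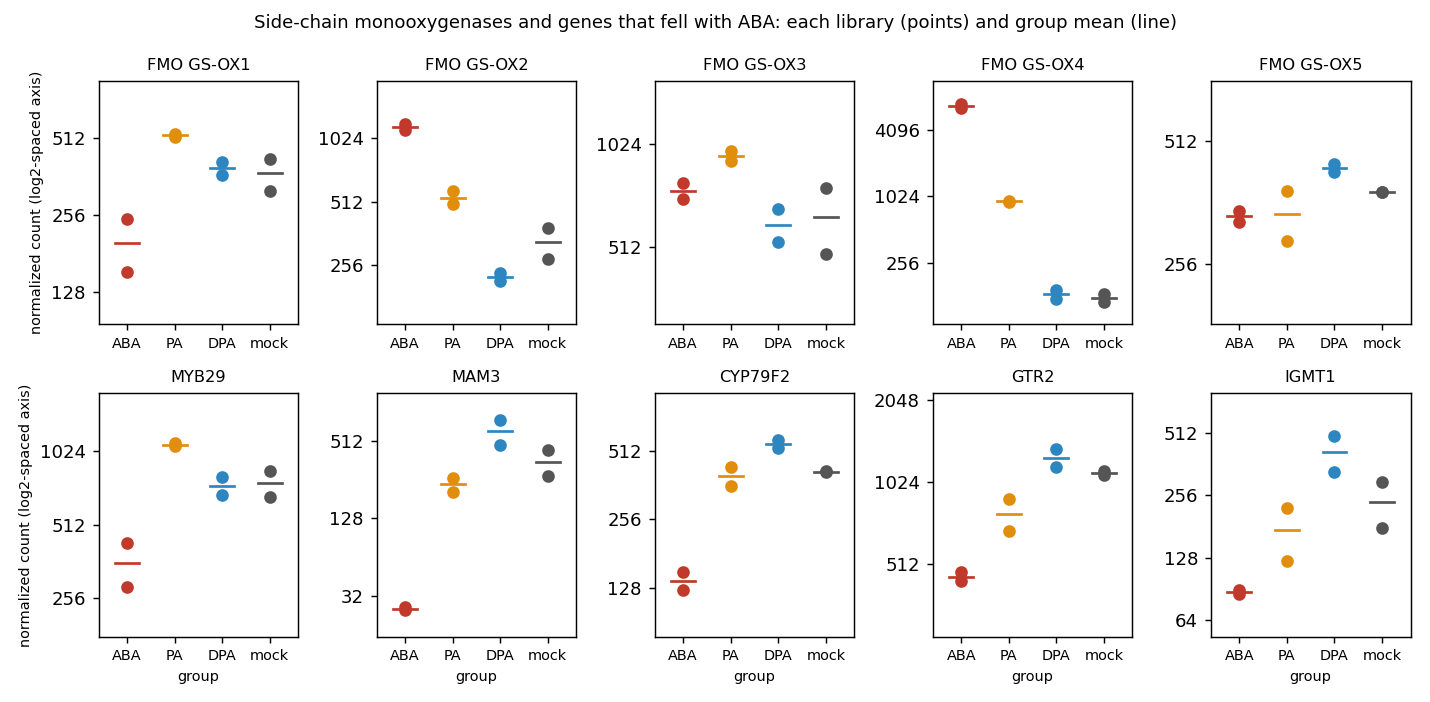
Normalized counts of the 5 FMO GS-OX genes, MYB29, MAM3, CYP79F2, GTR2 and IGMT1 in ABA, PA, DPA and mock libraries, with a point per library, a line at the group mean and axes spaced by log2. FMO GS-OX4 is highest with ABA and next with PA, whereas MAM3, CYP79F2, GTR2 and IGMT1 are lowest with ABA and highest with DPA.

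In the indolic core, CYP79B2 and CYP79B3 turn tryptophan into its aldoxime, which also feeds camalexin and auxin synthesis. CYP79B2 (AT4G39950) had 979 and 855 normalized counts with ABA, 1574 and 1212 with PA, 1408 and 1523 with DPA, and 1315 and 1352 in mock. CYP79B3 (AT2G22330) had 979 and 911 normalized counts with ABA, 1926 and 1555 with PA, 1839 and 1783 with DPA, and 1581 and 1985 in mock. Both lay lowest with ABA, with overlapping ranges in PA and mock, and the authors' deposited table gives ABA log2 fold changes of -0.54 for CYP79B2 and -0.92 for CYP79B3, both called. CYP83B1 (AT4G31500), which takes the aldoxime onward, had 3299 and 3242 normalized counts with ABA, 3859 and 3835 with PA, 4219 and 4112 with DPA, and 3779 and 3887 in mock. It was not called with ABA in the authors' deposited table (log2 fold change -0.23), while limma called it lower (adjusted p = 0.0266). The authors' deposited table also did not call the glutathione transferases GSTF9 and GSTF10 or the sulfotransferase SOT16 with ABA. GSTF9 (AT2G30860) had 6891 and 6721 normalized counts with ABA, 9659 and 7675 with PA, 5632 and 6181 with DPA, and 5462 and 8759 in mock, whose wide pair took in both ABA libraries. GSTF10 (AT2G30870), its neighbour 897 bases away, had 3453 and 3717 normalized counts with ABA, 3068 and 2824 with PA, 3576 and 3718 with DPA, and 3127 and 2638 in mock. SOT16 (AT1G74100) ranged from 1368 to 1450 normalized counts with ABA, stood at 1569 in both libraries with PA, and ranged from 1548 to 1635 with DPA and from 1389 to 1417 in mock, while SOT18 (AT1G74090), 151 bases away on the opposite strand, ranged from 718 to 905 with ABA, 1249 to 1370 with PA, 1071 to 1089 with DPA and 993 to 1138 in mock.

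The indolic side chain is hydroxylated by the CYP81F enzymes and then methylated by the IGMT methyltransferases. CYP81F3 (AT4G37400) had 24.4 and 36.7 normalized counts with ABA, 42.8 and 38.6 with PA, 85.9 and 79.5 with DPA, and 88.9 and 57.8 in mock. IGMT1 (AT1G21100) had 85.2 and 89.4 normalized counts with ABA, 224 and 124 with PA, 497 and 332 with DPA, and 297 and 179 in mock. Both were lowest with ABA, and the authors' deposited table gives log2 fold changes of -1.26 for CYP81F3 (DESeq adjusted p = 0.0452) and -1.45 for IGMT1 (adjusted p = 0.0499). A share of 10.4% of the 50-base exon windows of IGMT1 and 36.7% of those of IGMT2 also occur at another place in the genome, so their counts are uncertain. IGMT2 (AT1G21120) had 13.9 and 14.7 normalized counts with ABA, 3.43 and 3.51 with PA, 3.00 and 0 with DPA, and 4.09 and 4.36 in mock.

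CYP81F2 (AT5G57220), the enzyme of the pathogen-triggered branch, had 22.6 and 20.8 normalized counts with ABA, 14.6 and 21.0 with PA, 42.9 and 32.0 with DPA, and 27.6 and 21.8 in mock, highest with DPA. CYP81F1 (AT4G37430) had 264 and 254 normalized counts with ABA, 170 and 206 with PA, 280 and 258 with DPA, and 244 and 226 in mock, so its PA libraries were the lowest. CYP81F4 (AT4G37410), which leads to the N-methoxylated form, had 2505 and 2817 normalized counts with ABA, 3754 and 3284 with PA, 5074 and 3247 with DPA, and 3671 and 2091 in mock, so the mock pair differed by more than any group mean did from the mock mean. CYP81F1 and CYP81F4 lie almost wholly under antisense genes, AT4G37432 over 98.4% and AT4G37409 over 99.6% of their spans. These antisense genes averaged 187 and 2620 normalized counts over the groups, against 238 for CYP81F1 and 3305 for CYP81F4, and without strand the reads of each pair cannot be told apart.

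Of the shared core, the C-S lyase SUR1 (AT2G20610) had 1212 and 1568 normalized counts with ABA, 2620 and 2401 with PA, 2171 and 2441 with DPA, and 1949 and 2239 in mock. With ABA it fell in the authors' deposited table (log2 fold change -0.59, DESeq adjusted p = 0.0114), whereas GGP1, which trims the glutathione adduct, and the glucosyltransferase UGT74B1 were not called. GGP1 (AT4G30530) had 2139 and 2437 normalized counts with ABA, 2624 and 2466 with PA, 2045 and 2333 with DPA, and 1788 and 2152 in mock. UGT74B1 (AT1G24100) had 1213 and 1159 normalized counts with ABA, 1539 and 1540 with PA, 1274 and 1472 with DPA, and 1277 and 1405 in mock. The PA libraries of all 3 genes lay above both mock libraries, without a call against mock with PA.

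GTR1 and GTR2 import glucosinolates into the phloem and load seeds with them. GTR2 (AT5G62680) had 478 and 445 normalized counts with ABA, 891 and 676 with PA, 1354 and 1161 with DPA, and 1121 and 1091 in mock. Its ABA libraries were lowest and its PA libraries next, and in the authors' deposited table its log2 fold change with ABA was -1.26 (DESeq adjusted p = 4.38e-14). GTR1 (AT3G47960) had 1286 and 1253 normalized counts with ABA, 1209 and 1079 with PA, 1061 and 1177 with DPA, and 1089 and 1246 in mock. Its limma log2 difference was -0.15 for PA over ABA, with a 95% interval of -0.37 to 0.06.

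APK1 and APK2 make PAPS, the sulfate donor of the sulfotransferases. APK2 (AT4G39940) had 672 and 840 normalized counts with ABA, 1499 and 1420 with PA, 1128 and 1254 with DPA, and 937 and 1244 in mock. APK1 (AT2G14750) had 925.5 and 1108 normalized counts with ABA, 1596 and 1370 with PA, 1042 and 1148 with DPA, and 964 and 1242 in mock. PA gave the highest libraries of both kinases, and the authors' deposited table called neither of them with any compound.

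The myrosinases TGG1 and TGG2 (AT5G25980), which hydrolyse glucosinolates and are made in guard cells and phloem idioblasts, had the highest level per kilobase of exon of all the pathway genes, 16247 with ABA, 19392 with PA, 18234 with DPA and 19105 in mock for TGG1. TGG1 (AT5G26000) had 28886 and 32626 normalized counts with ABA, 35836 and 37582 with PA, 35637 and 33397 with DPA, and 34089 and 38242 in mock. TGG2 had 12663 and 14310 normalized counts with ABA, 13556 and 15366 with PA, 14487 and 13626 with DPA, and 13121 and 14215 in mock. Neither was called in any comparison with mock in the authors' deposited table, although both ABA libraries of TGG1 lay below the other 6. The 6 guard cell and stomatal lineage markers summed to 972 and 1118 normalized counts with ABA, 1546 and 1618 with PA, 1471 and 1412 with DPA, and 1331 and 1566 in mock, with none at 0. The authors' deposited table called MYB60 and KAT1, 2 of these 6 markers, lower with ABA, against 5.12% of all genes. The part of these markers in the TGG1 values was not tested.

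Taking each branch as the median over its genes of the log2 level relative to the mock mean, the aliphatic branch stood at -0.96 and -0.58 with ABA, 0.41 and 0.42 with PA, -0.04 and 0.10 with DPA, and -0.21 and 0.21 in mock. The indolic branch stood at -0.11 and -0.24 with ABA, 0.10 and -0.06 with PA, 0.25 and 0.15 with DPA, and 0.06 and -0.06 in mock. Aliphatic medians lay below both mock libraries with ABA and above both with PA, and the indolic medians lay below with ABA and above with DPA. The aliphatic minus indolic difference per library was -0.84 and -0.34 with ABA, 0.31 and 0.48 under PA, -0.29 and -0.05 under DPA, and -0.26 and 0.26 in mock. The aliphatic median also moved between duplicates. In mock, 22 of 25 aliphatic genes were higher in the library of lower size factor, with a median log2 difference of 0.41, against 0.01 over all genes, and with ABA 22 of 25 were, with a median of 0.32. The indolic median difference was -0.11 between the mock libraries and -0.04 between the ABA libraries.

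From the group means of the authors' deposited tables, the median log2 fold change of the aliphatic branch was -0.77 for ABA, 0.37 for PA and 0.01 for DPA. In the authors' deposited tables the indolic medians were -0.18 for ABA, 0.01 for PA and 0.17 for DPA, and the medians over all genes of a mean of 10 or more were -0.01 for ABA, -0.01 for PA and 0.00 for DPA. The aliphatic minus indolic difference was -0.59 with ABA, and -0.21 when the mock library with the lower size factor was left out. For PA it was 0.37, and 0.69 without that library, and for DPA it was -0.16, and 0.061 without it. These comparisons share the mock libraries, and no test was made of a branch.

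**Figure D3:**
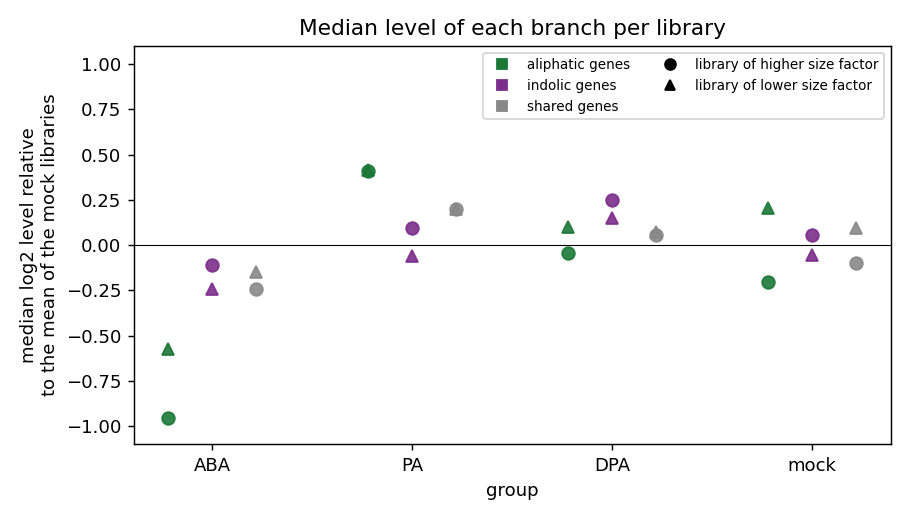
Median over the genes of each branch (25 aliphatic, 13 indolic, 9 shared) of the log2 level relative to the mean of the mock libraries, by group, with circles for the library of higher and triangles for the library of lower size factor. The aliphatic medians lie lowest in both ABA libraries, at -0.96 and -0.58, and highest in both PA libraries, at 0.41 and 0.42, with the mock libraries at -0.21 and 0.21.

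The 3 pairs of compounds were compared directly, at the same dose and time and without the mock libraries in the difference, by limma with p-values adjusted over 19617 genes and not over the pairs. The values of these libraries were also in view when the genes were listed, so the calls below are not independent of that choice. For PA over ABA, 29 of 47 genes were higher and 3 lower, where 7.34% of all genes were higher and 12.6% lower. When PA and ABA log2 fold changes of the deposited tables were subtracted, with errors implied by their p-values, the test called 16 genes in place of 32, 14 higher and 2 lower. The subtraction counts the error of the shared mock libraries in both terms, although it cancels in the difference, which makes the test stricter. The aliphatic branch gave 21 of 25 genes higher and 2 lower, with all 3 regulators, all 9 chain elongation genes and all 8 core genes higher, and a median log2 fold change of 1.18. The indolic branch gave 3 of 13 higher (CYP79B2, CYP79B3 and CYP83B1) and 1 lower (CYP81F1), with a median of 0.29. Of the 9 shared genes SUR1, UGT74B1, GTR2, APK1 and APK2 were higher with PA than with ABA. By the same test 3 of 6 guard cell and stomatal lineage markers and 1 of 4 leaf markers were also higher with PA than with ABA, none of the root markers was called, and the leaf markers summed to 201530 and 214991 normalized counts with PA, against 165410 and 198019 with ABA. The part of these cell types in the differences was not tested.

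MAM3 differed most upward, with 205 and 265 normalized counts under PA, against 26.1 and 24.5 under ABA, a log2 fold change of 3.15 ± 0.26 (SE, limma adjusted p = 4.18e-05). MYB29 was higher with PA than with ABA by 1.63 ± 0.18 and BCAT4 by 1.71 ± 0.23 on the log2 scale (limma adjusted p = 0.000254 and 0.000722). FMO GS-OX4 was lower with PA than with ABA by a log2 fold change of -2.86 ± 0.12 (limma adjusted p = 1.31e-06), and FMO GS-OX2 by -1.12 ± 0.15. The call of CYP81F1 (log2 fold change -0.47, adjusted p = 0.0241, limma) was lost when either ABA library (adjusted p = 0.125 and 0.0818) or the PA library with the higher size factor (adjusted p = 0.163) was left out. Among the genes without a call, FMO GS-OX3 had a 95% interval of -0.08 to 0.75, FMO GS-OX5 of -0.28 to 0.29, MYB51 of -0.43 to 0.34 and TGG2 of -0.13 to 0.34 on the log2 scale for PA over ABA.

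**Figure D4:**
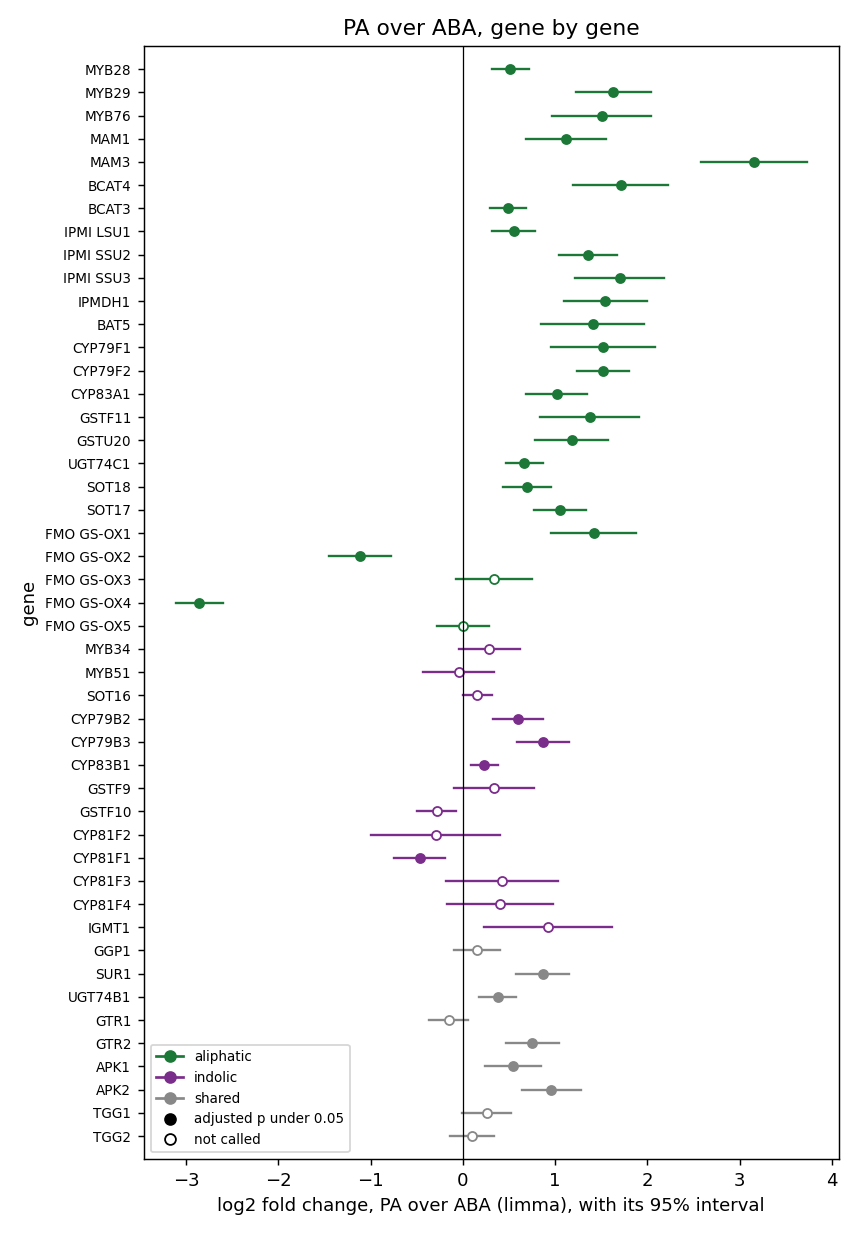
Log2 fold change of PA over ABA for each of the 47 genes (limma, points) with its 95% interval (lines), coloured by branch, with filled points at an adjusted p under 0.05. All aliphatic genes from MYB28 to FMO GS-OX1 lie right of 0 with filled points, FMO GS-OX2 and FMO GS-OX4 lie left of it, and 9 of 13 indolic genes have open points.

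For DPA over ABA, 29 of 47 genes were higher and 2 lower, where 15.5% of all genes were higher and 18.6% lower. The same subtraction called 10 genes in place of 31, 8 higher and 2 lower. The aliphatic branch again gave 21 of 25 higher and 2 lower, with FMO GS-OX4 at -5.65 ± 0.12 and FMO GS-OX2 at -2.36 ± 0.15 on the log2 scale (limma adjusted p = 5.68e-09 and 3.34e-06). MAM3 was higher with DPA than with ABA by 4.52 ± 0.26 and CYP79F2 by 1.99 ± 0.13 on the log2 scale. CYP79B2, CYP79B3, CYP83B1, CYP81F3 and IGMT1 of the indolic branch were higher with DPA, as were SUR1, GTR2 and APK2 of the shared genes. Guard cell and stomatal lineage markers were higher with DPA than with ABA in 4 of 6 and leaf markers in 1 of 4, and their part was not tested. MYB76 was not called (95% interval 0.01 to 1.08, limma adjusted p = 0.107), nor was FMO GS-OX3 (-0.75 to 0.08).

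For DPA over PA, 3 of 47 genes were higher and 2 lower, where 1.39% of all genes were higher and 2.44% lower. This count depended on the fit: with only the PA and DPA libraries limma called 20 genes, 7 higher and 13 lower, and the subtraction called 1, which was lower. MAM3 had 753 and 478 normalized counts with DPA, against 205 and 265 with PA (log2 fold change 1.36 ± 0.26, limma adjusted p = 0.0219). GTR2 was higher with DPA by 0.69 ± 0.13 (adjusted p = 0.0206, limma) and CYP81F1 by 0.52 ± 0.12 (adjusted p = 0.0492, limma). FMO GS-OX4 was lower with DPA than with PA by -2.80 ± 0.12 and FMO GS-OX2 by -1.25 ± 0.15 on the log2 scale. Leaving out the DPA library with the higher size factor or the PA library with the lower one ended the calls of MAM3, GTR2 and CYP81F1, and left 2 calls of 5. Leaving out the PA library with the higher size factor ended those of MAM3 and CYP81F1, and leaving out the other DPA library that of CYP81F1, whose limma adjusted p then lay between 0.0758 and 0.288. MYB29 was not called (log2 fold change -0.56, 95% interval -0.97 to -0.15, limma adjusted p = 0.132), nor were the 8 aliphatic core genes, of which 7 had a negative value. For DPA over PA, 22 of 25 aliphatic genes had a negative and 12 of 13 indolic genes a positive value. The median log2 fold change was -0.40 in the aliphatic branch, 0.21 in the indolic branch and -0.0045 over all genes. Aliphatic genes also moved together between duplicates, so their signs are not separate observations. In the library of lower size factor 20 of 25 were higher with DPA (median log2 difference 0.16), 22 of 25 in mock (0.41) and 8 of 25 with PA (-0.05).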

How the data were processed

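RNA of 8 libraries (ABA, PA, DPA and mock, 2 biological replicates each) was analysed from 3 comparison tables. Per the labels' protocols, oligo(dT)-selected RNA was copied with random hexamers, with no step that marks strand named. TopHat 1.4.1, HTSeq, DESeq 1.8.3 and the TAIR10 build are named in the submitters' processing notes without their roles. Each deposited group mean is a signal, here called a normalized count: per the file headers, the authors averaged over a group what the spacing of the values shows to be reads over a library's size factor. The deposited fold change is the ratio of treated to mock mean and was turned into log2 here. The deposited p-value and its adjusted form come from DESeq as far as the submitters' processing notes tell. Left out were 5 rows that name no gene, among them reads without a feature, 48.2% to 48.5% of the normalized total.

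A mean adds whole reads of each library times that library's step, and 100% of values above 0 had a single split, to a relative error of at most 5.7e-15. Since replicate numbers could not be recovered, a library goes by its group and whether its size factor is the higher or lower one. Counting error only is covered by the limit a count of 0 allows.

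Limma 3.58.1 in R 4.3.3 was fitted to log2(normalized count + 1) of 19617 genes with a mean of at least 10, in 4 groups, with 4 residual and 5.37 prior degrees of freedom and Benjamini-Hochberg adjustment. It was the main test between compounds and an alternative to the authors' calls against mock. The design had planned a count model had counts per library been deposited. Of simulated 2-fold changes limma found 42% for ABA, 52% for PA and 46% for DPA against mock. In the simulation 50 of 19617 genes changed by that fold, and 1 spread was set for all genes. Every listed gene is named by a rule that takes the whole list, and the genes, lists and markers were chosen with earlier results of these data known. Positions, exon lengths, overlaps and upstream windows come from the TAIR10.1 annotation of RefSeq. Alternatives were the threshold, scaling, pseudocount, filter, groups in the fit and libraries left out.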

Additional observations from a re-analysis of the deposited data

How the results depend on the processing

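Against mock with ABA, 20 pathway genes were called by the authors' deposited table, 9 at an adjusted p under 0.01, 32 by limma, also with upper-quartile scaling, a pseudocount of 0.5 or 5 or a mean of at least 50, 31 with no filter, and 20 to 32 with a library left out. With PA, 2 were called, 1 at 0.01, by limma with no filter or with only the 2 groups compared, and 1 to 13 with a library left out, 13 with the mock library of lower size factor missing and 1 with the other mock library or the PA library of lower size factor missing. With DPA, none was called, and 0 to 1 with a library left out (FMO GS-OX2, with the mock library of higher size factor missing). A stricter test took the difference of deposited log2 fold changes, with errors implied by their p-values that count the mock libraries in both terms. It called 16 genes for PA over ABA, where limma called 32, 10 for DPA over ABA, where limma called 31, and 1 for DPA over PA, where limma called 5. Leaving out a library gave 27 to 31, 21 to 29 and 2 to 4 calls in these comparisons. For DPA over PA limma called 2 at 0.01, a threshold chosen after seeing the data, and 20 with only the 2 groups in the fit. Where a group is left with 1 library, that library is assumed to vary like the others. The aliphatic minus indolic difference was -0.59 with ABA, -0.16 by means and -0.86 to -0.21 with a library left out. It was 0.37 with PA (0.18 to 0.69) and -0.16 with DPA (-0.39 to 0.061, reversed with the mock library of lower size factor missing). Of the values of single genes under an alternative, 947 kept direction and call, 151 gained and 133 lost the call, and none reversed. The causes were not tested. No paired analysis was possible because the recovered libraries carry no replicate number. With 2 libraries per group, simulated 2-fold changes were recovered in 42% to 52% of cases. The simulation changed a far smaller share of genes than limma called with ABA (18.0% higher and 14.3% lower). It therefore does not give the share of changes missed in these data. A missing call with 2 libraries per group does not show that a gene was unchanged.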

Other observations

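Sulfate assimilation supplies sulfur to glucosinolates. With ABA 3 of its 8 listed genes rose and 1 fell in the authors' deposited table, in which 10.3% of all genes rose and 5.12% fell with ABA. In the authors' deposited table the adenosine 5'-phosphosulfate reductase genes APR1, APR2 and APR3 rose by log2 fold changes of 0.88, 0.60 and 0.50, and the sulfite reductase gene SIR fell by 0.40 on the log2 scale (DESeq adjusted p of 0.00781), while limma called 3 of the 8 higher and 3 lower. APR1 had 2230 and 2287 normalized counts with ABA, 1833 and 1588 with PA, 1320 and 1439 with DPA, and 1094 and 1365 in mock. Among genes of glucosinolate breakdown, the nitrile specifier gene NSP5 had 4948 and 4709 normalized counts with ABA, 1494 and 1653 with PA, 1025 and 991 with DPA, and 1074 and 1128 in mock. In the authors' deposited table NSP5, ESP and NSP1 rose and PEN3, PYK10 and NSP4 fell with ABA, of 13 genes, and NSP5 also rose with PA by 0.52 on the log2 scale. PEN3, a transporter at the plasma membrane, had 5556 and 5329 normalized counts with ABA, 9009 and 8528 with PA, 13101 and 12605 with DPA, and 12309 and 10067 in mock.

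Of 13 other glucosinolate genes, AT2G25450 and SDI2 rose and NPF2.9 fell with ABA in the authors' deposited table, shares near those of all genes given above. AT2G25450 had 7258 and 8102 normalized counts with ABA, 5674 and 5594 with PA, 3582 and 3854 with DPA, and 3363 and 4472 in mock. None of 9 tryptophan synthesis genes and none of 3 camalexin genes was called with ABA in the authors' deposited table, which for lists this short is near the shares of all genes. Limma called 2 of the 9 higher and 2 lower, and 1 of the 3 camalexin genes higher, where it called 18.0% of all genes higher and 14.3% lower. In the authors' deposited table ASA1 of the tryptophan list came nearest with a log2 fold change of -0.60 (DESeq adjusted p of 0.0524).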
